A study of Mus musculus with 64 samples.

Results

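CD90.2 is the Thy-1.2 form of Thy1, a small glycoprotein held in the outer cell membrane by a lipid anchor. In mice it covers T cells densely and is also carried by innate lymphoid cells, which look like lymphocytes but make no antigen receptor. Granulocytes, macrophages and most dendritic cells are not known for it, so it serves as a pan-lymphoid marker wherever B cells are few. Its gene, Thy1, lies on the + strand at chr9:44043384-44048579 of GRCm38.p6, per the GENCODE annotation. The antibody was 1 of 11 in a panel of tagged antibodies, and its counts were read in 9 libraries of colon immune cells (EpCAM-/CD45+ sort). Tags on the other 10 antibodies identify T cells (CD3, CD4), innate lymphoid and memory cells (CD127, the IL-7 receptor chain, and KLRG1, an inhibitory receptor), gut-resident cells (CD103, an integrin chain) and myeloid cells (CD11b, CD11c, CD64, Ly-6C, Ly-6G).

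All libraries came from SCID mice, whose own T and B cells do not develop, labelled as given a transfer of CD45RBhi T cells, a naive fraction that causes colitis in such hosts. Of these, 1 library was of week 7 mice that received anti-IL-12p40 from day 10, an antibody to p40, which IL-12 and IL-23 have in common. The other 8 were of untreated mice, 1 for each of weeks 0 to 7, collected 7 days apart, and the week 0 library carries the transfer label as well. Each library pooled colons of 3 animals, so no spread between animals is seen, trends rest on 8 pools, and treatment is 1 library against 1. Donor strain and animal age are not given in the sources used here.

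A library had from 11534 to 21229 barcodes and from 12914066 to 28723452 counts, and 130442 of 131917 barcodes were kept. Library pairs shared 30 to 110 barcodes. A cell's level is given as its count, as the percent of all antibody counts, and as the centred log ratio, in which ln(count+1) is set against the average of the same quantity over all 11 antibodies of that cell. Phenotypes were gated on the 10 other antibodies, so that CD90.2 placed no cell. In CD90.2+ cells of the untreated CD3+CD4+ phenotype the median CD3 count was 34 to 72 and the median CD4 count 142 to 275. In CD90.2+ cells of the CD3-CD4- phenotype these medians were 1 to 7 and 1 to 10. CD3 and CD4 define both gates, so this gap describes the gates and is no independent check of them. Gates with only 1 of the 2 markers were less distinct in CD3. Median CD3 counts in untreated CD3+CD4- cells were 4, 3, 17, 24 and 49.5 for weeks 0 to 4. Untreated CD3-CD4+ cells had 2, 1, 2, 14, 12, 11, 15 and 12 for weeks 0 to 7.

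CD90.2 gave more counts than any other antibody in most cells. It was the top antibody of a cell in 88.5% of treated cells and in 47.1% (week 4) to 82.2% (week 7) of untreated cells. Counts of different antibodies also depend on each reagent, so this does not rank the proteins by abundance. Over weeks 0 to 7 CD90.2 made up 57.6, 45.3, 34.2, 32.6, 24.8, 42.0, 44.2 and 51.3% of all antibody counts. The lowest share was at week 4 and the highest at week 0, with a fall over weeks 0 to 4 and higher values at weeks 5 to 7. Median CD90.2 counts per cell over the same weeks were 503, 221, 304, 494, 176, 385, 793 and 711, while the median sum of the 10 other antibodies was 314, 192, 434, 655, 555, 574, 571 and 538. The level in a summed library cannot tell fewer CD90.2-bearing cells from less CD90.2 per cell. The share of counts had no monotonic course with week (Spearman's rho -0.119, exact permutation p = 0.793, adjusted over 11 antibodies 0.872, n = 8), and Pearson's r was -0.0936 (exact permutation p = 0.822). Without weeks 0 and 7 these were -0.0857 and 0.0675. Of the 11 antibodies 2 (18.2%) passed for this measure, and CD90.2 was not among them.

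**Figure D1:**
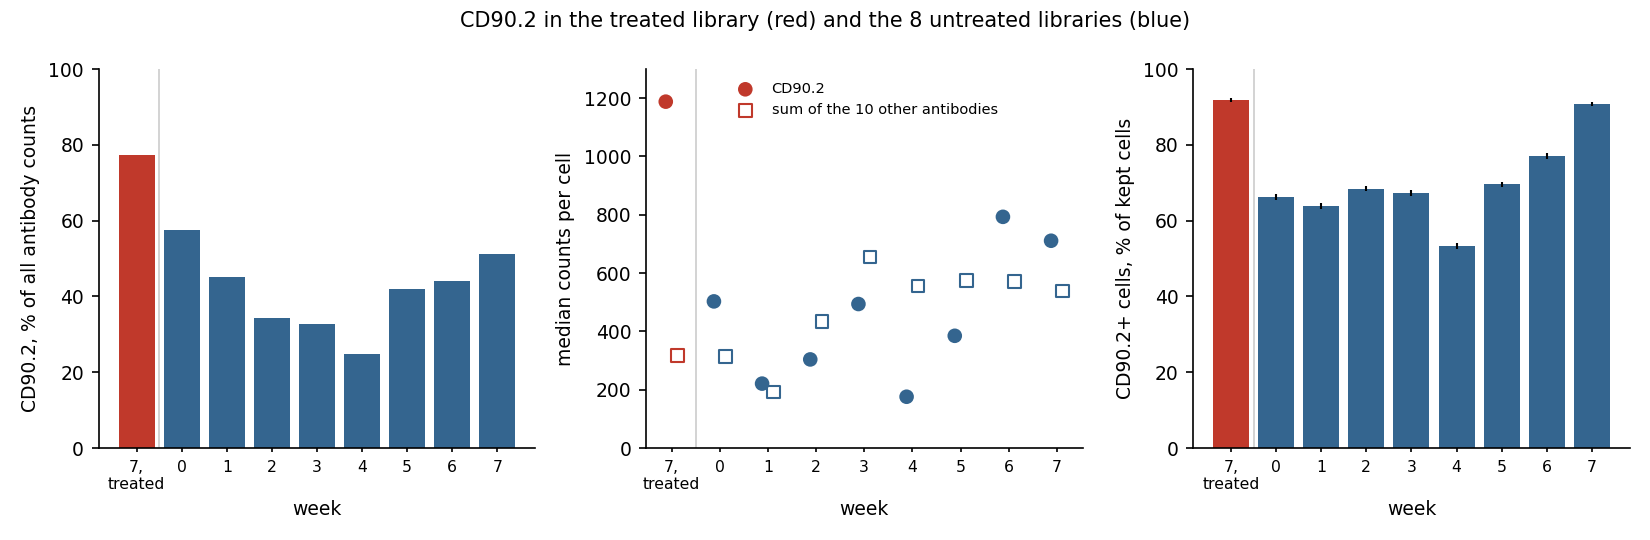
CD90.2 as a percent of all antibody counts (left), median counts per cell of CD90.2 (circles) and of the 10 other antibodies summed (squares, middle), and CD90.2+ cells as a percent of kept cells with exact 95% intervals (right), for the treated library (red) and untreated weeks 0 to 7 (blue). The treated library reaches 77.4% of counts and a median of 1188, above all 8 untreated libraries, while its CD90.2+ share of 91.8% is close to the 90.7% of untreated week 7. That closeness depends on the shared threshold. With thresholds fitted in each library (not drawn) the shares are 80.1% treated and 90.6% in untreated week 7.

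A cell was called CD90.2+ above a centred log ratio of 2.03, where the components of a 2-component mixture were equally probable. The components stood well apart over all libraries together (Ashman's D 3.49, the distance between them in units of their spread). Fitted in each library, D was 2.35 in the treated one and 2.88 at untreated week 7. Over untreated libraries it ran from 2.43 (week 5) to 4.76 (week 2). The median count of CD90.2+ cells was 45.2 times that of CD90.2- cells in the treated library and 9.78 to 26.3 times in the untreated ones. CD90.2- cells still had a median of 29 counts in the treated and 18 to 78.5 in the untreated libraries. How much of this is unbound or nonspecifically bound antibody was not tested. Within 0.25 of the threshold lay 2.60% of treated and 2.93 to 13.1% of untreated cells, most at week 5. CD90.2+ cells were 66.3, 63.9, 68.4, 67.2, 53.3, 69.6, 77.0 and 90.7% of cells at weeks 0 to 7. The last 3 weeks were the 3 highest. With thresholds fitted in each library this order was lost, with 71.5% at week 3 and 63.5% at week 5. The treated share was then 80.1%, below the 90.6% of untreated week 7. The rank correlation with week was 0.714 (exact permutation p = 0.0576, adjusted 0.106, n = 8) and r was 0.610 (exact permutation p = 0.103), so the course did not pass, where 2 of 11 antibodies (18.2%) did. Without weeks 0 and 7 rho was 0.6 and r 0.375. Leaving out week 4 alone gave a rho of 0.929 with an adjusted exact permutation p of 0.0271.

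On the centred log ratio averaged over libraries, CD90.2 was higher in every lymphoid gate than in every myeloid gate. The centred log ratio averaged 3.44 ± 0.362 in CD3+CD4+ cells (SD over libraries, n = 7), 3.03 ± 0.864 in CD3-CD4+ cells, 2.86 ± 0.930 in CD3-CD4- cells, 1.80 ± 0.948 in cells with CD11b and no other myeloid marker, 1.21 ± 0.616 in CD11c+CD64- cells, 0.883 ± 0.860 in CD64+ cells and 0.752 ± 0.752 in CD11b+Ly-6G+ cells (n = 8 each). CD11b with Ly-6G is the surface of neutrophils, CD64 that of macrophages and many monocytes, and CD11c without CD64 that of dendritic cells. CD3+CD4- cells averaged 3.21 in the 5 libraries with 50 or more of them and were not tested. Of the 21 pairs of phenotypes 16 differed across libraries (exact sign-flip permutation, adjusted p under 0.05), 12 of 12 between lymphoid and myeloid gates, 2 of 3 among lymphoid and 2 of 6 among myeloid ones. For CD127, KLRG1, CD103 and Ly-6C, which also gate nothing, 56 of 84 pairs differed (66.7%), so a difference between these phenotypes was not rare on this panel. Counts overlapped more: at week 0 CD64+ cells had a median of 795 and CD3-CD4- cells 733, and at week 5 cells with CD11b alone had 153, CD3-CD4+ cells 126 and CD3-CD4- cells 90. The week 0 order depended on the gates. With gates over 11 antibodies CD64+ cells had 470 and CD3-CD4- cells 792. The centred log ratio also sets CD90.2 against the antibodies that define the myeloid gates, and gaps were smaller without it. On the median of ln(count+1) CD3-CD4- cells minus cells with CD11b alone was 0.539, against 1.06. It no longer passed (adjusted exact sign-flip permutation p = 0.0615). CD3-CD4- minus CD11b+Ly-6G+ cells was 0.792, against 2.10, and passed (adjusted exact sign-flip permutation p = 0.0234).

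CD3+CD4+ cells, the phenotype of transferred helper T cells, had the smallest spread of CD90.2 over libraries of the 7 phenotypes tested, by the SD of the centred log ratio. Week 0 held 1 such cell, with 719 counts, and is not used, whereas the SDs of the other phenotypes include week 0. At weeks 1 to 7 the median count was 600, 546, 768, 370, 558, 982 and 760, lowest at week 4 and highest at week 6, a range of 2.65 times. CD90.2 took 66.8, 59.8, 57.6, 49.97, 54.7, 66.2 and 61.3% of their counts. CD90.2+ cells were 99.4 and 99.9% at weeks 1 and 2, 91.8, 92.1 and 87.2% at weeks 3, 4 and 5, and 99.8 and 98.6% at weeks 6 and 7. The CD90.2- cells of weeks 3, 4 and 5 (574, 679 and 1190 cells) were not empty, with median CD90.2 counts of 114, 104 and 98. They kept median CD4 counts of 165, 134 and 258, against 175, 153 and 267 in CD90.2+ cells of those weeks. CD3 was lower on them, at 39, 42 and 29, against 72, 50 and 56 counts.

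CD3-CD4- lymphoid cells, the gate where innate lymphoid cells would fall in a host without B cells, had their highest median CD90.2 count at week 0 and their lowest at week 4. The median over weeks 0 to 7 was 733, 325, 288, 300, 69, 90, 180 and 144.5. All of weeks 0 to 3 were above all of weeks 4 to 7. The share of counts did not split the weeks in this way, at 81.1, 76.5, 61.2, 42.5, 40.8, 52.0, 33.2 and 62.1%, lowest at week 6. CD90.2+ cells were 87.7, 84.9, 85.8, 65.9, 45.1, 48.4, 58.3 and 59.9% of the gate over the same weeks. The gate held fewer cells at later weeks, with 6620, 5256, 3236, 1408, 417, 477, 259 and 152 cells. The rank correlation of the centred log ratio with week was -0.762 (exact permutation p = 0.0368, n = 8), with r = -0.842 (exact permutation p = 0.0129), and neither passed after adjustment over 77 antibody and phenotype pairs (0.177 and 0.102). Without weeks 0 and 7 rho was -0.771 and r -0.859.

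**Figure D2:**
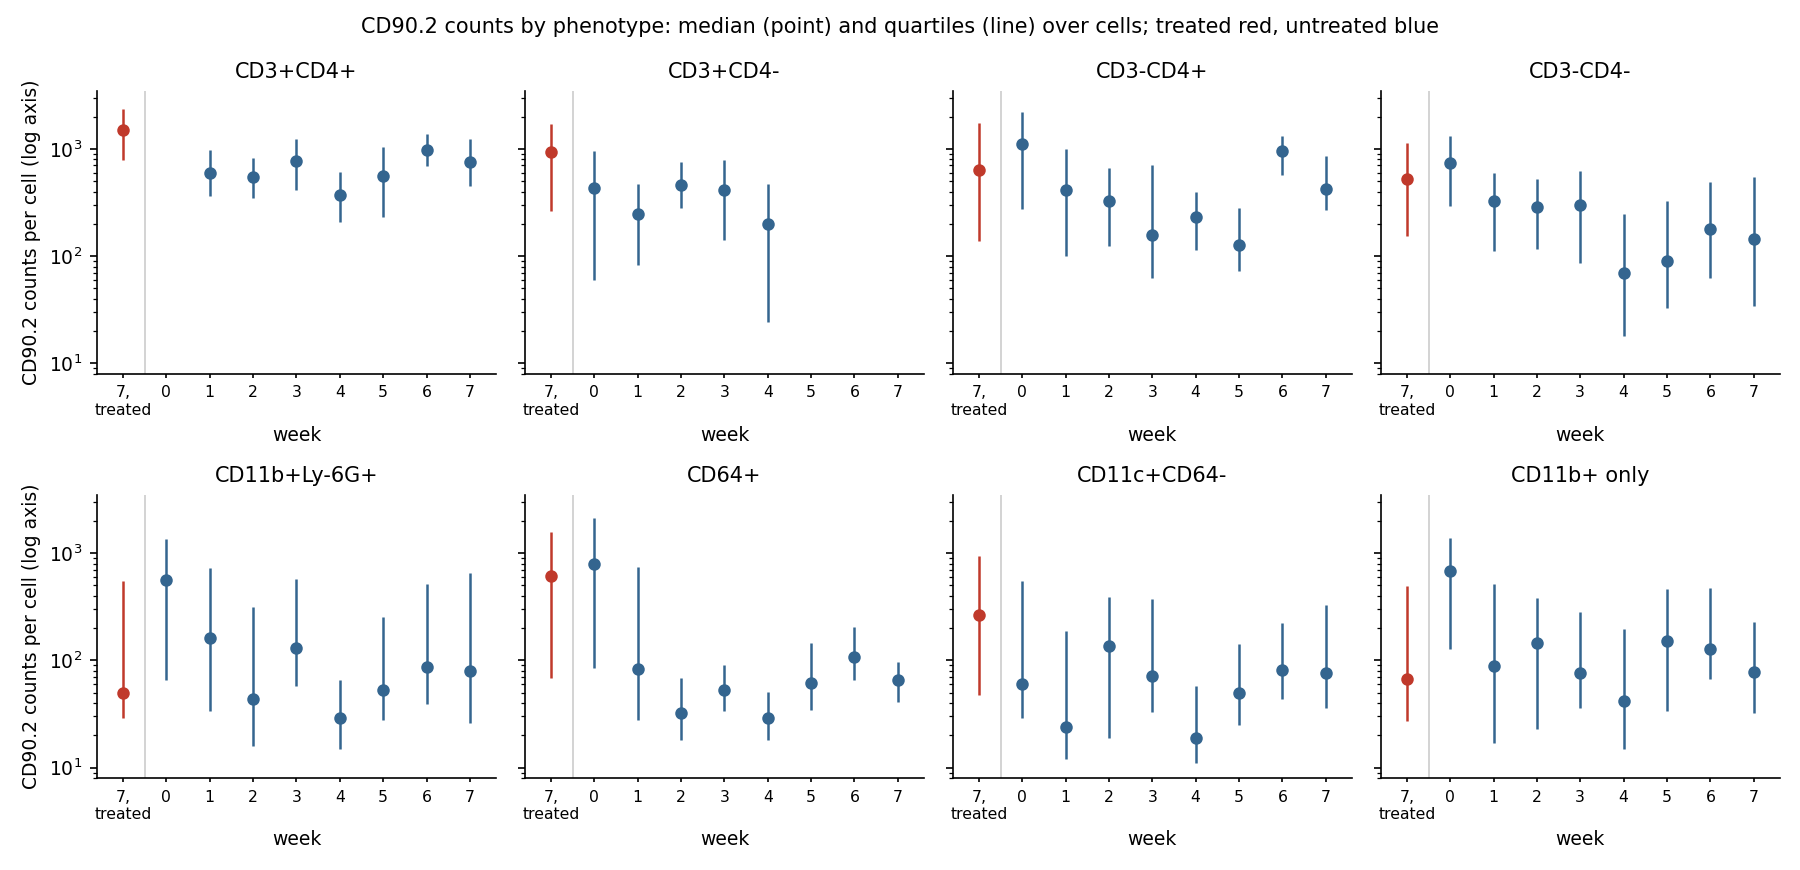
CD90.2 counts per cell (log axis) in 8 phenotypes, as the median (point) and quartiles (line) over the cells of each library with 50 or more, for the treated library (red) and untreated weeks 0 to 7 (blue). CD3+CD4+ medians stay between 370 and 982 in untreated weeks, whereas CD3-CD4- medians run from 288 to 733 in weeks 0 to 3 and reach at most 180 later.

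The CD3-CD4- gate held cells on both sides of the threshold. Its CD90.2+ cells had median counts of 860.5, 398, 336, 487, 261.5, 350, 320 and 390 at weeks 0 to 7, against a range of 10.6 times for the medians of the whole gate, and its CD90.2- cells had 26, 12, 14, 41, 19, 34, 51.5 and 27. KLRG1, which marks a subset of group 2 innate lymphoid cells and activated lymphocytes, had a higher median on CD90.2+ cells at weeks 0 to 4. It was 7, 11, 7, 19 and 7.5 in CD90.2+ cells of weeks 0 to 4, against 1, 1, 1, 8 and 2 in CD90.2- cells. At weeks 5, 6 and 7 the KLRG1 medians were 3, 4 and 2 in CD90.2+ cells and 4, 5 and 2 in CD90.2- cells. Over single cells of the gate the rank correlation of KLRG1 with CD90.2 was above 0 in every untreated library, from 0.1204 (week 5) to 0.356 (week 4). This was not particular to KLRG1, as each of the other antibodies was above 0 in every library too. CD64, which is absent from this gate, ran from 0.311 (week 7) to 0.453 (week 0). Cells share depth and staining. CD127, the receptor innate lymphoid cells need for IL-7, was at 14 counts in CD90.2+ and 14.5 in CD90.2- cells at week 0, and at 11 and 4 counts at week 7. CD90.2 enters the call, so these values are a description.

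On the centred log ratio averaged over libraries, CD3-CD4+ cells fell between CD3+CD4+ and CD3-CD4- cells. Their median count over weeks 0 to 7 was 1102, 418, 324.5, 158, 230, 126, 950.5 and 423.5, and the libraries with many of them, week 6 (1162 cells) and week 5 (861 cells), were far apart. The week 6 value lay beside that of CD3+CD4+ cells in the same library (982), and 98.5% of the CD3-CD4+ cells were CD90.2+. These week 6 cells had median CD3 and CD4 counts of 15 and 214, against 34 and 217 in CD3+CD4+ cells. CD3+CD4+ cells exceeded CD3-CD4+ cells in 7 of 7 libraries, by 0.580 ± 0.476 on the centred log ratio (SD, exact sign-flip permutation, adjusted p = 0.0219). After thinning every cell to 164 counts this was 0.135 and did not pass (exact sign-flip permutation, adjusted p = 0.193). CD3+CD4+ cells exceeded CD3-CD4- cells in 6 of 7, by 0.773 ± 0.580 (exact sign-flip permutation, adjusted p = 0.0410). That call was lost when any of weeks 1, 3, 4, 5, 6 or 7 was left out, which leaves 6 libraries (0.667 to 0.892), after thinning (0.503), with thresholds per library (0.576) and with gates over 11 antibodies (0.557). CD3-CD4+ and CD3-CD4- cells, neighbours in the order, were not separated (0.178 ± 0.621, higher in 5 of 8, exact sign-flip permutation, adjusted p = 0.453).

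In 3 of the 4 myeloid phenotypes the median CD90.2 count was highest at week 0. CD64+ cells had median CD90.2 counts of 795, 84, 32, 53, 29, 61.5, 108 and 65 over weeks 0 to 7, and CD11b+Ly-6G+ cells 567.5, 161, 44, 131, 29, 53, 86 and 79. CD11c+CD64- cells had 60, 24, 136.5, 71, 19, 50, 81 and 77, with no high week 0. Cells with CD11b alone had 685, 89.5, 144, 76, 42, 153, 128 and 78.5. With gates over 11 antibodies the week 0 medians were 470 in CD64+ cells, 260 in CD11b+Ly-6G+ cells and 746 in cells with CD11b alone. The 4 myeloid phenotypes were not fully ordered: CD64+ and CD11b+Ly-6G+ cells were below cells with CD11b alone in 8 of 8 libraries, with differences of -0.914 ± 0.461 and -1.045 ± 0.436 (SD, exact sign-flip permutation, adjusted p = 0.0164 each). The other 4 myeloid pairs did not pass. Of these, CD11c+CD64- cells minus cells with CD11b alone passed with gates over 11 antibodies (-0.818, adjusted exact sign-flip permutation p = 0.0219) and on the median of ln(count+1) (-0.771, adjusted exact sign-flip permutation p = 0.0234).

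The share of CD90.2+ cells in the CD64+ gate differed widely between weeks. Of CD64+ cells 57.9, 43.0, 16.8, 6.70, 2.54, 14.1, 12.3 and 3.09% were CD90.2+ at weeks 0 to 7, highest at weeks 0 and 1. At week 0 the 2316 CD90.2+ cells of the gate had median counts of 111.5 CD64 and 290 CD11b, and the 1686 CD90.2- cells 108 and 408. CD64 defines the gate, so its presence on both describes the gate. CD11b does not define it, and was on both. CD3 was at 7 and CD4 at 38 counts in those CD90.2+ cells, against 8 and 31 in the CD90.2- cells. At weeks 4, 5 and 6 the CD90.2+ cells of the gate had median CD4 counts of 102, 190 and 174 and CD3 counts of 33, 37 and 25, against 9, 17 and 20 for CD4 and 8, 10 and 10 for CD3 in CD90.2- cells. At weeks 1, 2 and 3 the CD90.2+ cells had median CD4 counts of 9, 10 and 20 and CD3 counts of 4, 5 and 13, against 5, 5 and 15 for CD4 and 4, 3 and 19 for CD3 in CD90.2- cells. The gap in T cell markers was thus wide at weeks 4 to 6 and small at weeks 0 to 3. In CD11c+CD64- cells it was small in every week but week 6, when CD4 was at 85 counts in CD90.2+ and 16 in CD90.2- cells. Droplets that hold more than 1 cell were not removed, and their part in this was not tested. CD11c and CD103 were lower on CD90.2+ than on CD90.2- cells of the CD11c+CD64- gate in every library. At week 0 CD11c was at 51 and 290 counts and CD103 at 5 and 210. CD3+ cells that also bore a myeloid marker had CD90.2 at 71.5% of their counts in the treated and at 31.5 to 53.7% in the untreated libraries.

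**Figure D3:**
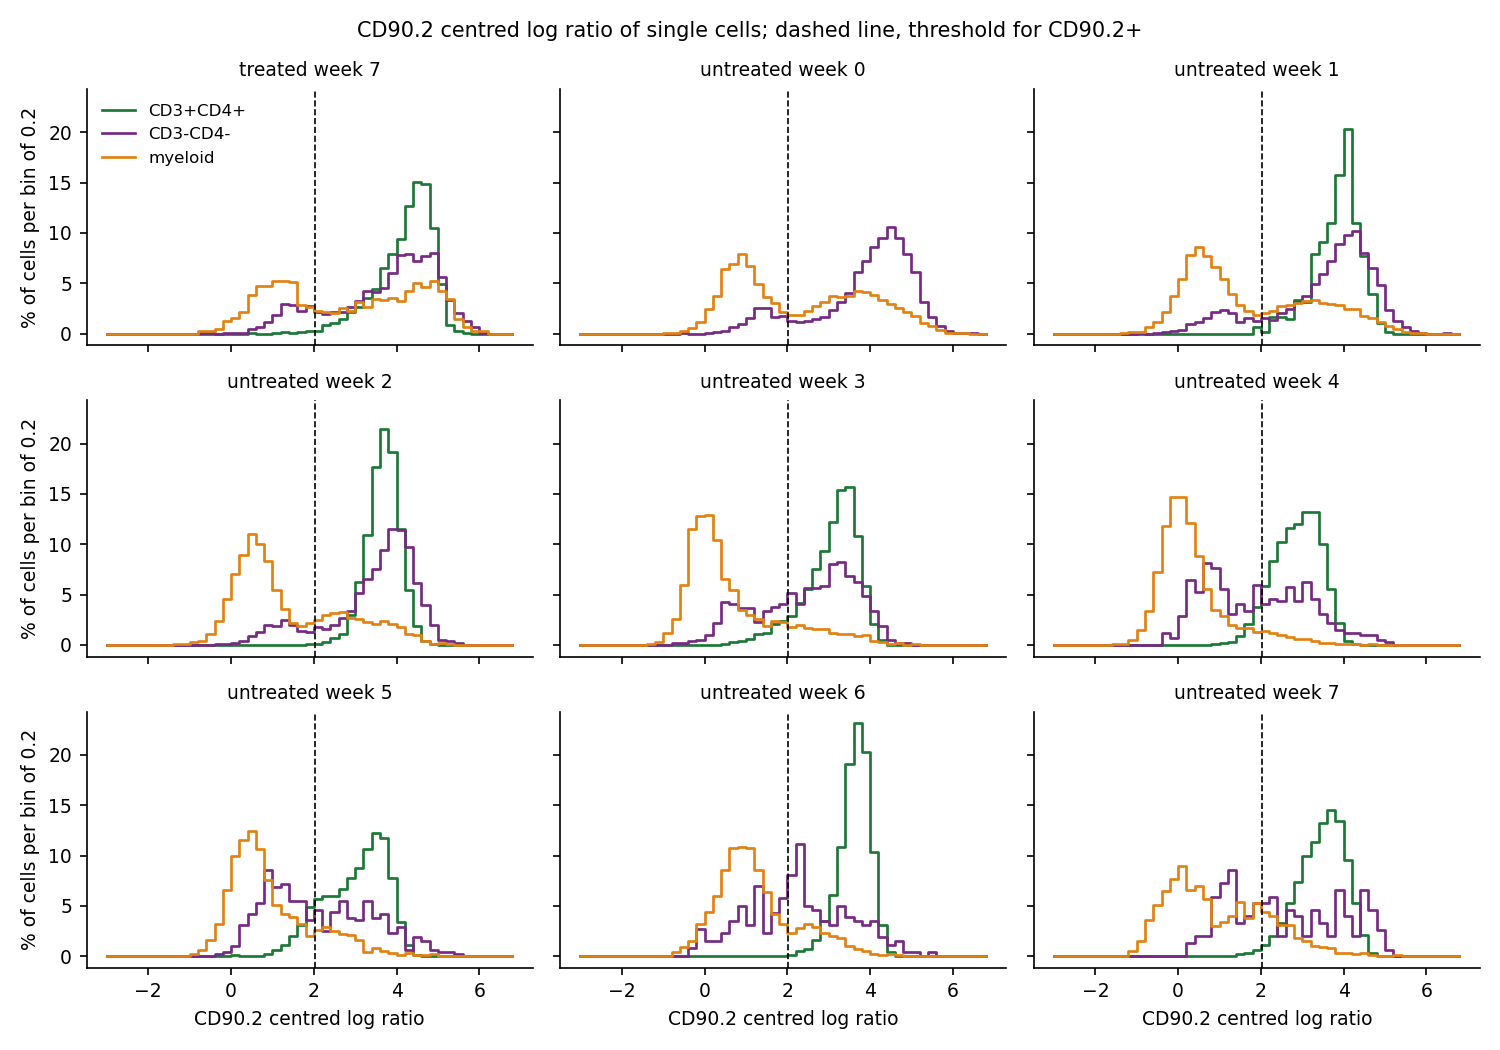
Distribution of the CD90.2 centred log ratio over single cells of the CD3+CD4+ (green), CD3-CD4- (purple) and 4 myeloid (orange) phenotypes in each library, as percent of cells per bin, with the CD90.2+ threshold of 2.03 dashed. The highest bin of CD3+CD4+ cells lies right of the line in every library shown and that of untreated myeloid cells left of it, treated myeloid cells lie on both sides, and CD3-CD4- cells lie mostly right of it at weeks 0 to 2 and on both sides at weeks 4 to 7.

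Across weeks no phenotype's CD90.2 course passed the test. By Spearman's rho 0 of 7 passed after adjustment (all antibody and phenotype pairs, 0 of 77, 0%) and 1 of 7 had an unadjusted exact permutation p under 0.05, where 24.7% of the 77 pairs did. By Pearson's r 0 of 7 passed after adjustment. The rank correlations were -0.429 in CD3+CD4+, -0.476 in CD3-CD4+, -0.500 in CD64+, -0.476 in CD11b+Ly-6G+, -0.0952 in CD11c+CD64- cells and -0.595 in cells with CD11b alone. All 7 were negative, but on the median of ln(count+1) the CD3+CD4+ and CD11c+CD64- ones were positive (0.357 and 0.238). Of these 7 phenotypes 6 had 50 or more cells at week 0, and in 5 of the 6 the centred log ratio was highest there. The exception, CD11c+CD64- cells, had its highest share of counts at week 0 (37.5%).

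T cells carried more CD90.2 counts each in the library treated with anti-IL-12p40. The CD3+CD4+ median was 1486 (quartiles 789 and 2330) with treatment, against 760 (448 and 1242) in untreated week 7. No untreated week exceeded 982. The centred log ratio was 4.35 in treated and 3.53 in untreated cells, a difference of 0.822, and the share of counts was 79.9% and 61.3%, a ratio of 1.303. The 10 other antibodies together had a lower median in the treated CD3+CD4+ cells, 371 against 517 counts. With 1 library a side no test was possible, and treatment cannot be told apart from any other difference between these pools.

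In CD3-CD4- cells the share of counts was 82.1% with treatment and 62.1% without, a ratio of 1.32, close to that of CD3+CD4+ cells. Their median CD90.2 count differed more, at 526 with treatment and 144.5 without, 3.64 times, and the treated value was above those of weeks 5 to 7 (90 to 180) but within weeks 0 to 3. CD90.2+ cells made up 84.4% of the treated gate (exact 95% interval 82.6 to 86.0%, counting error only) and 59.9% of the untreated one (51.6 to 67.7%). The gate held 1880 treated and 152 untreated cells. Within CD90.2+ cells of the gate the median was 677.5 in treated and 390 in untreated cells, and KLRG1 was at 20 and 2 counts. CD3-CD4+ cells had a median of 635 with treatment and 423.5 without, inside the range of weeks 5 to 7. In treated CD3+CD4- cells the median was 935 counts. Untreated week 7 had 38 cells of this gate, too few to compare.

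Of the 7 phenotypes compared, 4 had a CD90.2 share of counts at least 1.5 times higher with treatment and outside the untreated values of weeks 5 to 7, and 0 were lower. By the same rule 51.9% of all 77 antibody and phenotype pairs were called and 11.7% were called higher. All 4 were myeloid. The lymphoid gates compared had untreated shares of 52.9 to 62.1%, which left them little room to be 1.5 times higher. CD64+ cells gave 64.1% in the treated library and 3.85% in untreated week 7 (16.7 times), CD11c+CD64- cells 58.2 and 26.9% (2.16 times), cells with CD11b alone 23.9 and 11.7% (2.03 times), and CD11b+Ly-6G+ cells 16.0 and 10.3% (1.55 times). Median counts ran the other way in the last pair of gates: cells with CD11b alone had 67 treated and 78.5 untreated counts, and CD11b+Ly-6G+ cells 49.5 and 79, so both ratios were below 1 (0.854 and 0.627). For CD64+ cells the median was 609 and 65 counts, and for CD11c+CD64- cells 265 and 77. By median count CD3+CD4+ (1.96 times) and CD3-CD4- cells (3.64 times) also met the rule, so the calls depended on the measure. CD90.2+ cells of the treated CD11c+CD64- gate had a median of 45.5 CD11c counts, against 100 in its CD90.2- cells.

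The treated CD64+ gate was mostly cells with little CD64. Its 254 CD90.2+ cells had median counts of 9 CD64 and 5 CD11b and a median sum of 119.5 over the 10 other antibodies. Its 151 CD90.2- cells had 59 CD64, 175 CD11b and a sum of 627. The 157 CD90.2- cells of untreated week 7 had 127 CD64 and 367 CD11b. The treated CD90.2+ cells thus had low counts of CD64, the marker that defines the gate, and of CD11b, which macrophages also carry. When CD90.2 was kept in the transform used for gating, the treated gate held 279 rather than 405 cells and its median CD90.2 count was 113 rather than 609. The ratio of the share of counts was 4.28 when every cell was thinned to 164 counts and 2.95 with thresholds fitted in each library.

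CD90.2 also varied inside the lymphoid gates with KLRG1 and CD103. This comparison was chosen after the data were seen. Among CD3+CD4+ cells the KLRG1+ ones had lower CD90.2 medians in 6 of 6 untreated libraries with 50 or more cells of each kind, at 0.7998 to 0.961 times the KLRG1- ones (ratios of the count plus 1, exact sign-flip permutation, adjusted over 4 comparisons 0.0417, the smallest it allows unadjusted being 0.0312). At week 7 these were 649 and 786 counts. The sum of the other 9 antibodies was also lower in KLRG1+ cells in 5 of the 6, and divided by the ratio of these sums the CD90.2 ratio was 0.896 to 0.952. CD103+ cells were higher in 6 of 6, at 1.104 to 1.299 times CD103- cells (exact sign-flip permutation, adjusted p = 0.0417), with 856 and 733 counts at week 7, or 1.09 to 1.32 times when divided likewise. Among CD3-CD4- cells KLRG1 ran the other way: KLRG1+ cells were higher in 7 of 7 libraries, at 1.17 to 3.66 times (exact sign-flip permutation, adjusted p = 0.0417), with 818.5 and 634.5 counts at week 0, or 1.099 to 3.35 times when divided likewise. CD103 gave no such order there, with higher CD90.2 in CD103+ cells in 2 of 7 (exact sign-flip permutation, adjusted p = 0.141). The treated library had the same directions for KLRG1, at 1267 and 1556.5 counts in CD3+CD4+ cells and 567 and 449 in CD3-CD4- cells. Treated CD103+ and CD103- cells of the CD3+CD4+ phenotype had 1558 and 1450.5 counts, but the ratio was 0.991 when divided likewise.

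**Figure D4:**
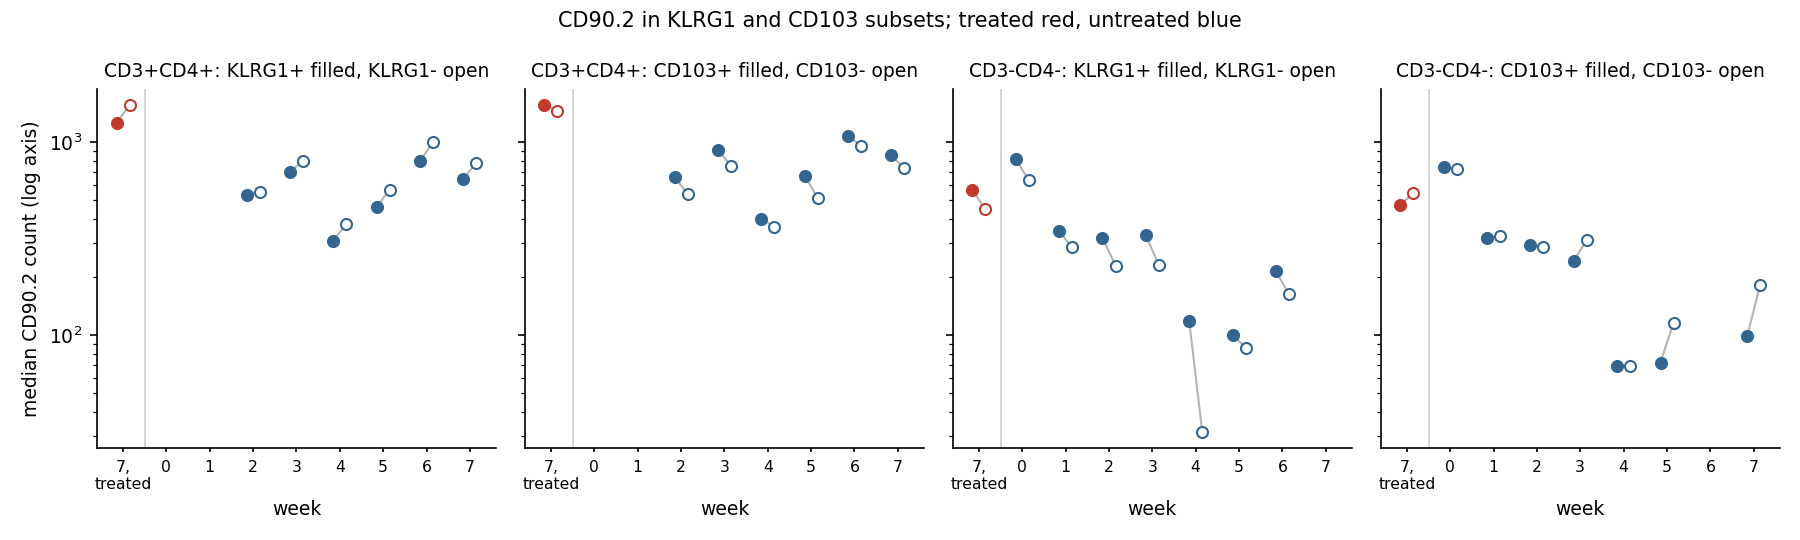
Median CD90.2 count (log axis) of KLRG1+ or CD103+ cells (filled) and of KLRG1- or CD103- cells (open) of the CD3+CD4+ and CD3-CD4- phenotypes, for the treated library (red) and untreated weeks (blue) with 50 or more cells of each kind. In CD3+CD4+ cells the KLRG1+ point is the lower one in all libraries shown and the CD103+ point the higher one, and in CD3-CD4- cells the KLRG1+ point is the higher one.

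CD3+CD4+ cells with more CD90.2 counts had more counts of the other antibodies. The rank correlation of their CD90.2 count with the sum of the 10 others was 0.483 in the treated library and 0.486 to 0.757 in untreated weeks, as a description over cells that share depth and staining. For KLRG1 it was 0.0686 treated and 0.0422 to 0.142 untreated, the lowest of the 10 antibodies in each of these libraries. In CD3-CD4- cells the correlation with the sum was weaker, 0.270 treated and 0.207 to 0.423 untreated. Over 68 points of 1 phenotype in 1 library, the antibodies whose median count was most like CD90.2 were CD127 (Pearson's r 0.483) and CD4 (0.394), and the least alike was CD11c (-0.628). The points share libraries and depth, and no p is given.

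Since CD90.2 was so large a part of the counts, it bore on the values of the other antibodies. In the centred log ratio a cell's CD90.2 enters the mean that is subtracted, which moves all 10 others by the same amount in that cell, down where CD90.2 is above the mean of the 10 and up where it is below. The median shift over all cells was -0.425 in the treated library and -0.217 to -0.345 in the untreated ones. It was -0.435 in treated and -0.291 to -0.393 in untreated CD3+CD4+ cells, against -0.0515 in treated CD11b+Ly-6G+ cells and 0.00643 (week 4) to -0.238 (week 0) in untreated ones. The threshold fitted with CD90.2 in the mean minus that without it was -0.187 for Ly-6C and -0.312 for CD4, the ends of the range over the 10 antibodies. At least 1 call on the 10 antibodies changed in 17.2% of treated cells and in 9.62 to 19.1% of untreated cells, 15.0% over all 9 libraries. The phenotype changed in 5130 cells, 3.93%.

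The effect differed between antibodies. CD127, whose components overlap, changed most, in 7327 cells (5.62%), of which 6133 were positive only without CD90.2 in the mean. Of these 6128 were CD90.2+. Ly-6C changed in 1.95% of cells, CD64 in 1.68%, CD3 in 1.505%, CD11c in 1.43%, KLRG1 in 1.26%, CD103 in 1.13%, CD4 in 0.798%, CD11b in 0.792% and Ly-6G in 0.152%. The widest gap in 1 library was for CD127 at week 6, with 35.3% positive with CD90.2 in the mean and 43.7% without. In the treated library 3.15% of cells were CD64+ with CD90.2 in the mean and 4.85% without, against 1.55 and 1.49% in untreated week 7, so the ratio was 2.04 or 3.24. For CD3, CD4, CD127, KLRG1, CD103, CD11b and Ly-6G the ratio of treated to untreated positive shares moved by less than 0.05 either way. It moved from 2.63 with CD90.2 to 2.94 without for CD11c and from 0.457 to 0.576 for Ly-6C.

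Shares of counts moved further. With CD90.2 at 77.4% of the treated and 51.3% of the untreated week 7 counts, every other antibody's treated to untreated ratio was 2.15 times larger once CD90.2 was taken out of the total. CD4, the helper T cell coreceptor, was 7.86% of all treated and 17.6% of all untreated counts, a ratio of 0.447, but 34.8 and 36.2% of the counts without CD90.2, a ratio of 0.962. The factor is fixed by the 2 CD90.2 shares and is the same for all 10, so it changes the ratio to 1 and not the order of the antibodies. CD3 was at 0.690 and 1.49 and CD127 at 0.654 and 1.41 in the 2 totals. CD103, CD11c and CD64 were near 1 in the full total (1.00, 0.944 and 1.046) and at 2.16, 2.03 and 2.25 without CD90.2. KLRG1 was higher with treatment either way (2.49 and 5.37), and Ly-6G (0.0848 and 0.183), CD11b (0.387 and 0.833) and Ly-6C (0.403 and 0.868) were lower either way.

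Weekly courses of the others changed less. In shares of all counts CD4 (rho 0.929) and KLRG1 (-0.929) passed, adjusted exact permutation p = 0.0112 each over 10 antibodies. Without CD90.2 in the total 4 of the 10 passed: CD4 (0.929, adjusted exact permutation p = 0.0223), CD3 (0.857, 0.0357), CD11b (-0.881, 0.0357) and KLRG1 (-0.833, 0.0384). CD3 and CD11b had adjusted exact permutation p of 0.0917 and 0.0991 in the full total. The total without CD90.2 was chosen after the data were seen. All 10 kept the sign of their rank correlation.

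**Figure D5:**
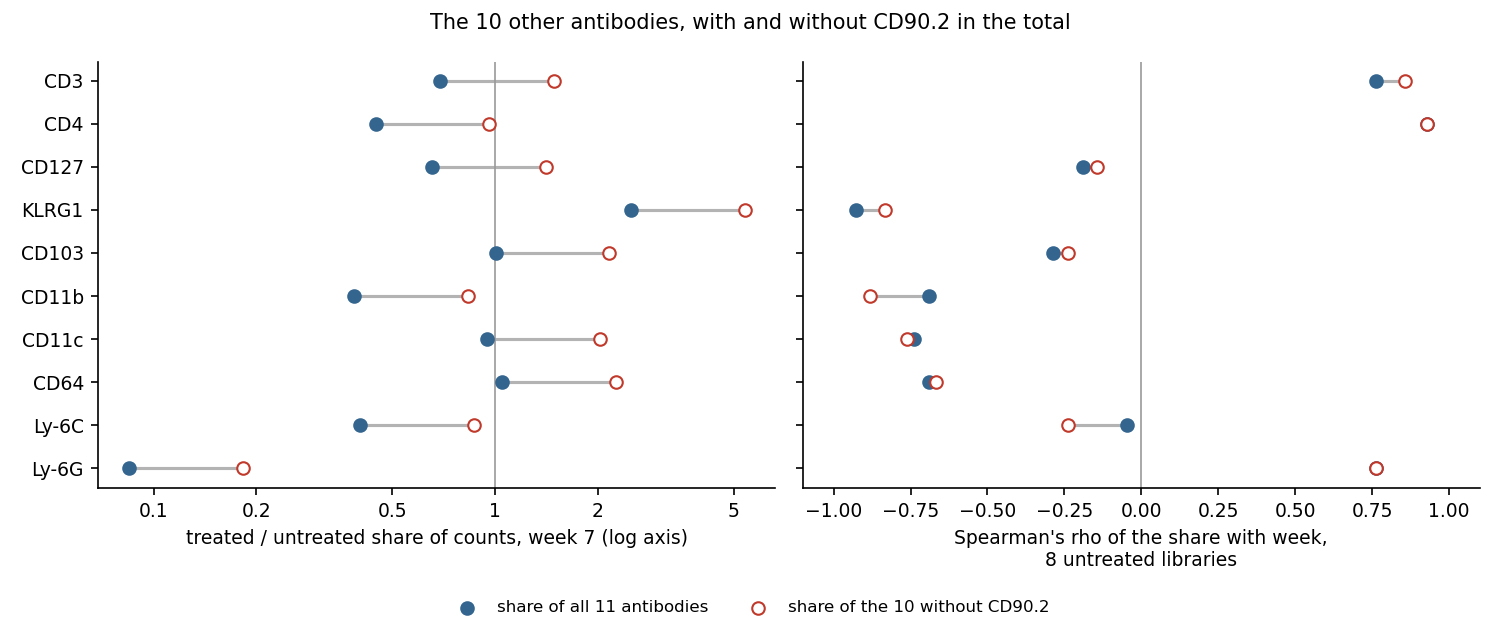
Treated over untreated share of counts at week 7 (left, log axis) and Spearman's rho of the share with week over the 8 untreated libraries (right) for the 10 other antibodies, as shares of all 11 antibodies (filled) and of the 10 without CD90.2 (open). On the left every open point lies to the right of its filled point by the same factor of 2.15.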

How the data were processed

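Per the labels' protocols, cells of the lamina propria took up 11 tagged antibodies, were sorted, and went into droplets at some 16000 a sample. The deposited tables hold raw counts, 1 whole number for each antibody and barcode. Per the submitters' processing notes, mm10, Seurat 4.1.1 and Cell Ranger 6.0.2 were in use, for steps that are not named. The choice of barcodes is not stated in those notes. The other 55 of 64 samples were not used here.

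Barcodes under 50 counts and the top 1% of each library were left out. No doublet caller was run. Thresholds came from 2-component Gaussian mixtures on 2000 cells of each library, once for all libraries. Gates used the centred log ratio over the 10 antibodies without CD90.2 (pseudocount 1), CD90.2 levels that over all 11. Lymphoid gates had no CD11b, CD11c, CD64 or Ly-6G. Myeloid gates had no CD3. CD64+ excludes Ly-6G+, and CD11c+CD64- excludes Ly-6G+. Levels need 50 or more cells, and tests 6 or more libraries. Trends were tested over all 40320 orderings of 8 libraries (smallest p 4.96e-05), phenotype pairs over all sign changes (smallest p 0.00781 for 8 libraries and 0.0156 for 7), two-sided, with Benjamini-Hochberg adjustment at 0.05. Intervals are exact Clopper-Pearson at 95%, for counting error only. CD90.2 is described in every gate and library, the 2 antibodies most and the 1 least like it are named, and all 10 are named for its effect. The gates, lists and tests were chosen with earlier results of these data known. Steps were tested on simulated data. Alternatives were each week left out, Pearson's r, other count filters, thinning to 164 counts per cell, thresholds per library, gates over 11 antibodies, other level measures and a pseudocount of 5. Mixtures were fitted with scikit-learn 1.9.0, tests run with scipy 1.17.1 and numpy 2.4.6, and figures drawn with matplotlib 3.10.9, in Python 3.11.15.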

Additional observations from a re-analysis of the deposited data

How the results depend on the processing

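No pairing between groups was possible because each group is 1 library and groups share only 1 replicate number. Differences between phenotypes, and between KLRG1 or CD103 subsets, were paired within a library. The rank correlation of the CD90.2 share of counts with week ran from -0.429 to 0.321 when each week was left out, was positive without week 0 (0.321) and week 1 (0.107), and was 0.0238 with the top 5% of barcodes out and 0.190 after thinning. For the CD90.2+ share it ran from 0.571 to 0.929 and passed only without week 4. Changes of sign within phenotypes were CD11c+CD64- by week (0.0357 without week 0, 0.143 without week 2, range -0.464 to 0.143, 0.0476 after thinning and 0.0476 with thresholds per library), and on the median of ln(count+1) CD11c+CD64- (0.238) and CD3+CD4+ by week (0.357), CD11b+Ly-6G+ minus CD64+ (0.167) and CD64+ minus CD11c+CD64- (0.351). With treatment, median count ratios were 0.627 for CD11b+Ly-6G+ cells and 0.854 for cells with CD11b alone. The counts of 0 of 7 trends, 16 of 21 pairs (15 to 19) and 4 of 7 treated phenotypes (3 to 5) kept within 1.5 times under each alternative. The treated counts of 3 came from fewer phenotypes. Cells with CD11b alone were not compared with the top 5% of barcodes out, thresholds per library or gates over 11 antibodies. CD3-CD4- cells were not compared with thresholds per library. The treated phenotypes called did not stay the same ones. By median count CD3+CD4+ (1.96) and CD3-CD4- cells (3.64) were called higher and CD11b+Ly-6G+ cells lower, and cells with CD11b alone were not called. The pairs of phenotypes that lost or gained a call stand with their values beside the results. Thinning left out 0.167 to 9.97% of cells and gave CD90.2+ shares of 94.4% treated and 53.4 to 90.4% untreated. The cause of these changes was not tested. Depth limits the gates with few cells, and 1 pool per group limits all comparisons.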
